A study of Sus scrofa with 2 samples.

Results

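Described here are SMAD-induced target genes, feedback inhibitors of the pathway, nuclear corepressors of SMADs and a protein that brings SMADs to the receptor. They are the inhibitor of DNA binding genes ID1, ID2 and ID4, the SMAD corepressors SKI, SKIL and TGIF1, the feedback inhibitors PMEPA1, BAMBI and SMURF1, and ZFYVE9, which anchors SMADs at the receptor. They were chosen by name, and 9 of the 10 were matched by GeneID among the 34570 genes listed. SKI is not analysed here. RNA was measured in follicular granulosa cells, which line the ovarian follicle and nourish the oocyte, taken from female Chinese Erhualian pigs (Sus scrofa). One group received a negative control siRNA and the other an siRNA against SMAD4, and the labels name no other agent, dose, time or age. For each group, equal amounts of RNA from 3 individuals were combined and sequenced as 1 library. The labels do not say whether both pools came from the same animals, so animal and siRNA cannot be told apart.

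Ligands of the TGF-beta family bind paired receptor kinases, which phosphorylate receptor SMADs. These join SMAD4, the common partner of the TGF-beta, activin and BMP branches, and the complex regulates genes in the nucleus. Among its targets are genes whose products dampen the pathway again at the membrane, in the cytoplasm or on chromatin. In the ovary, granulosa cells receive such signals from the oocyte (GDF9, BMP15) and from their own activins and anti-Müllerian hormone. The pathway is known there for its part in proliferation, survival and steroid synthesis.

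The unit throughout is upper-quartile RPKM (reads per transcript length, divided by 1 number for the library). Levels are set side by side between genes on that basis. The annotation and read counting behind them were not given, so such comparisons are uncertain to that extent. Reads were recovered from the values as the smallest whole numbers that fit, and are lower bounds. Intervals rest on these reads, and would be narrower if the true reads were a whole multiple of them. The libraries held at least 17680952 reads (control) and 17394711 reads (SMAD4 siRNA). Ranges in parentheses after a ratio are exact Clopper-Pearson 95% intervals from a gene's split of reads between the libraries. Such intervals hold counting error alone: animals and transfections also vary, and without molecular identifiers a molecule can give several reads. Since each group has 1 library, the conditions cannot be tested against each other, and every difference is one between these libraries. SMAD4, the targeted gene, had a value of 85.0 with control siRNA and 47.9 with SMAD4 siRNA, a ratio of 0.563 (0.497 to 0.639), so that 56.3% of its control value remained.

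The comparison asked how transcripts of these targets and regulators of SMAD signalling differ when SMAD4 is knocked down. Whether each of them depends on SMAD4 was not tested. Of the 9 members, 4 were lower in the SMAD4 siRNA library by more than counting error: ID2, BAMBI, PMEPA1 and ID1, in order from the lowest ratio. ID2 was at 58.5% of its control value, BAMBI at 71.1%, PMEPA1 at 71.2% and ID1 at 82.9%. TGIF1, SMURF1, ZFYVE9 and SKIL had intervals that include 1 with the values as deposited, and ID4 had too few recovered reads to place. None of the 9 had an interval wholly above 1. Of the 16609 genes whose mean value reached 1, 21.5% lay below 1 with their whole interval and 12.7% above it. In cells measured in bulk, fewer cells of a type and less RNA per cell cannot be told apart.

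**Figure D1:**
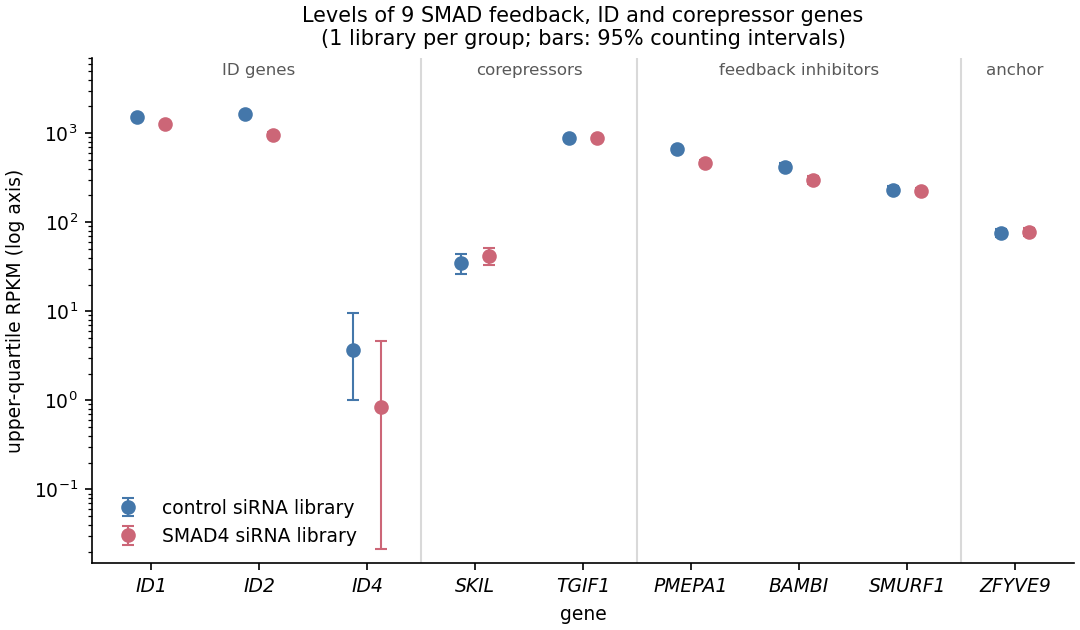
Level of each of the 9 genes in the control siRNA library (blue) and the SMAD4 siRNA library (red), in upper-quartile RPKM on a log axis, with 1 library per group and 95% Poisson counting intervals as bars. ID1, ID2 and TGIF1 are the highest, between 874 and 1647, and ID4 is lowest, at 3.71 and 0.842.

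The ID genes encode helix-loop-helix proteins without a DNA-binding region, which bind E proteins and keep them off DNA, and they are classical BMP targets. ID1 had a value of 1536 with control siRNA and 1273 with SMAD4 siRNA, on at least 1364 and 1245 reads. ID2 had a value of 1647 with control siRNA and 963 with SMAD4 siRNA, on at least 1879 and 1210 reads. Both were thus abundant in either library: 93.2% of the genes above 0 in the control library had a lower value than ID1, and 93.6% had a lower value than ID2. The ratio of ID1 was 0.829 (0.767 to 0.896), a log2 ratio of -0.27. The ratio of ID2 was 0.585 (0.544 to 0.629), a log2 ratio of -0.77.

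ID1 and ID2 differed from each other in these libraries by more than counting error. Their ratio of ratios, ID1 over ID2, was 1.42 (1.27 to 1.58, exact conditional interval), a quantity that no scaling of the libraries can alter. Their order changed with it: the level of ID1 was 0.932 times that of ID2 in the control library and 1.32 times that of ID2 in the SMAD4 siRNA library. In the control library their counting intervals overlapped (1455 to 1619 for ID1, 1573 to 1723 for ID2), and in the SMAD4 siRNA library they did not (1203 to 1346 and 910 to 1019). Together ID1, ID2 and ID4 summed to 3186 with control siRNA and 2237 with SMAD4 siRNA, a ratio of 0.702, and the part of ID2 in that sum went from 51.7% to 43.1%.

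ID4 had a value of 3.71 with control siRNA and 0.842 with SMAD4 siRNA, on at least 4 reads and 1 read. Its ratio of 0.227 has an interval from 0.00461 to 2.29 on these recovered reads, so no difference was detectable on them. It was nonetheless the 1 member past a 2-fold difference on the scale of log2(value + 1), at -1.35, a rule that called 6.68% of all genes lower and 7.17% higher and that takes no account of reads. ID3, the remaining gene of the family, was listed at 0 in both libraries. FLNA and POR, which most cells express, were also listed at 0 in both, so a listed 0 says nothing of expression.

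The corepressors bind SMAD complexes on DNA and recruit histone deacetylases. TGIF1, a homeodomain protein that competes with coactivators for SMAD2 and SMAD3, had a value of 874 with control siRNA and 893 with SMAD4 siRNA, on at least 1317 and 1483 reads. Its ratio was 1.02 (0.949 to 1.10) with the values as deposited, an interval that holds 1. With the libraries rescaled to equal sums it was 1.11 (1.03 to 1.20), wholly above 1. SKIL, also called SnoN, represses SMAD targets, is degraded when TGF-beta signals and is itself induced by it afterwards. Its value was 34.6 with control siRNA and 41.7 with SMAD4 siRNA, on at least 61 and 81 reads. Its ratio of 1.21 (0.854 to 1.71) includes a lower as well as a higher level. TGIF1 was the more abundant of the pair, at 25.3 times the level of SKIL with control siRNA and 21.4 times with SMAD4 siRNA.

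Among the feedback inhibitors, the membrane proteins were lower and the ubiquitin ligase was not distinguishable from 1. PMEPA1, a membrane protein that binds SMAD2 and SMAD3 and keeps them from the receptor, had a value of 657 with control siRNA and 468 with SMAD4 siRNA, on at least 942 and 739 reads. The ratio was 0.712 (0.646 to 0.785). BAMBI, a decoy receptor that lacks the kinase domain, had a value of 421 with control siRNA and 299.9 with SMAD4 siRNA, on at least 434 and 340 reads. Its ratio was 0.711 (0.615 to 0.822). PMEPA1 and BAMBI had nearly the same ratio, with a ratio of ratios of 1.001 (0.841 to 1.19), although BAMBI was at a lower level in both libraries.

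SMURF1, the ubiquitin ligase that marks BMP-branch SMADs and receptors for degradation, had a value of 233 with control siRNA and 225 with SMAD4 siRNA, on at least 537 and 571 reads. The ratio was 0.966 (0.857 to 1.09), and its side of 1 turned with the scaling of the libraries. Its difference from PMEPA1 was larger than counting error, with PMEPA1 over SMURF1 at 0.738 (0.632 to 0.862), and that from BAMBI was as well, with BAMBI over SMURF1 at 0.737 (0.610 to 0.890).

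ZFYVE9, also called SARA, is a FYVE-domain protein of early endosomes that presents SMAD2 and SMAD3 to the TGF-beta receptor, so it works for the pathway and not against it. Its value was 76.1 with control siRNA and 77.6 with SMAD4 siRNA, on at least 335 and 376 reads. Its ratio was 1.02 (0.877 to 1.18), with levels on both sides of 1 inside the interval. An entry named CLIC1 lies within the ZFYVE9 locus in the RefSeq annotation of assembly Sscrofa11.1. The deposited row named CLIC1 had a value of 1182 with control siRNA and 1171 with SMAD4 siRNA, a ratio of 0.991, far above the level of ZFYVE9. RefSeq has another CLIC1 entry elsewhere, and the sources used here do not say which one the row holds or how reads of overlapping genes were assigned, so the value of ZFYVE9 is uncertain to that extent.

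**Figure D2:**
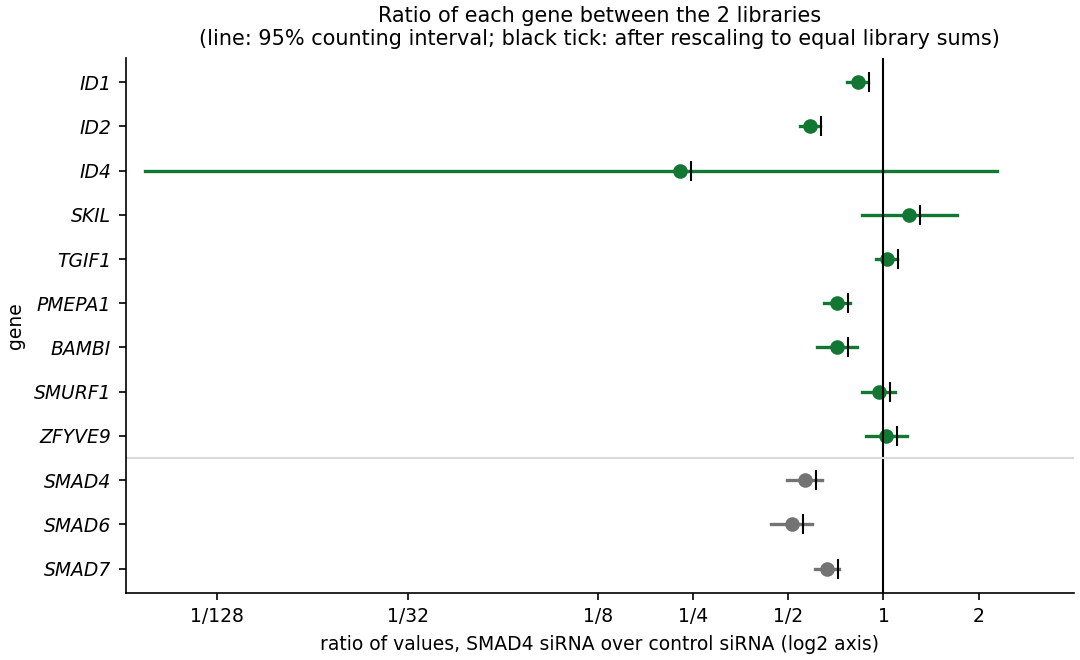
Ratio of the SMAD4 siRNA value to the control value for the 9 genes (green) and for SMAD4, SMAD6 and SMAD7 (grey) on a log2 axis, with 95% counting intervals as lines and the ratio after rescaling both libraries to the same sum as black ticks. ID1, ID2, PMEPA1 and BAMBI lie below 1 with their whole intervals, and ID4 has an interval from 0.00461 to 2.29.

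The order of the levels was otherwise the same in both libraries. In the control library it ran ID2, ID1, TGIF1, PMEPA1, BAMBI, SMURF1, ZFYVE9, SKIL and ID4, and ID2 and ID1 were the neighbours whose counting intervals overlapped. In the SMAD4 siRNA library ID1 came first, and the overlapping neighbours were ID2 (910 to 1019) and TGIF1 (848 to 940). Ratios of ratios were computed for all 36 pairs of members, and also for pairs with SMAD4, SMAD6 and SMAD7. None of their intervals is adjusted for the number of pairs.

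Against SMAD4 itself, ID2 had about the same ratio, with ID2 over SMAD4 at 1.04 (0.897 to 1.20). BAMBI over SMAD4 was at 1.26 (1.04 to 1.53), PMEPA1 over SMAD4 at 1.26 (1.08 to 1.48) and ID1 over SMAD4 at 1.47 (1.27 to 1.71), so these were less far below 1 than the targeted gene. The inhibitory SMADs are feedback genes of the pathway as well. SMAD6, made mainly in response to BMPs, had a ratio of 0.513 (0.441 to 0.596), and SMAD7, made in response to both branches, had 0.663 (0.606 to 0.725). ID2 over SMAD6 was at 1.14 (0.964 to 1.35), PMEPA1 over SMAD7 at 1.07 (0.941 to 1.23) and BAMBI over SMAD7 at 1.07 (0.904 to 1.27), with intervals that include 1. The other pairs of these genes had intervals that exclude 1: ID2 over SMAD7 was at 0.882 (0.786 to 0.991), PMEPA1 over SMAD6 at 1.39 (1.16 to 1.66), BAMBI over SMAD6 at 1.39 (1.12 to 1.71), ID1 over SMAD6 at 1.61 (1.36 to 1.91) and ID1 over SMAD7 at 1.25 (1.11 to 1.41). ID1 was thus less far below 1 than both inhibitory SMADs.

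All 9 members passed the minimum mean value of 1, and 8 of them, all but ID4, had at least 100 reads over both libraries. Among all genes with as many reads, the members were spread widely. Of the 9664 genes with at least 100 reads over both libraries, 2.86% had a lower ratio than ID2, 8.95% a lower ratio than BAMBI, 9.02% a lower ratio than PMEPA1 and 23.8% a lower ratio than ID1. The corresponding share was 51.3% for SMURF1, 61.9% for ZFYVE9, 62.6% for TGIF1 and 85.6% for SKIL. For SMAD4 it was 2.29%. In this deeper set 4 of 8 members had an interval wholly below 1, beside 32.4% of all such genes, and 0 had one wholly above 1, beside 17.6%. The median log2 ratio of the 9 members was -0.27, beside -0.05 for all genes above the same minimum. For the 8 with at least 100 reads it was -0.16, beside -0.06 for all such genes. No test of the set was made.

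**Figure D3:**
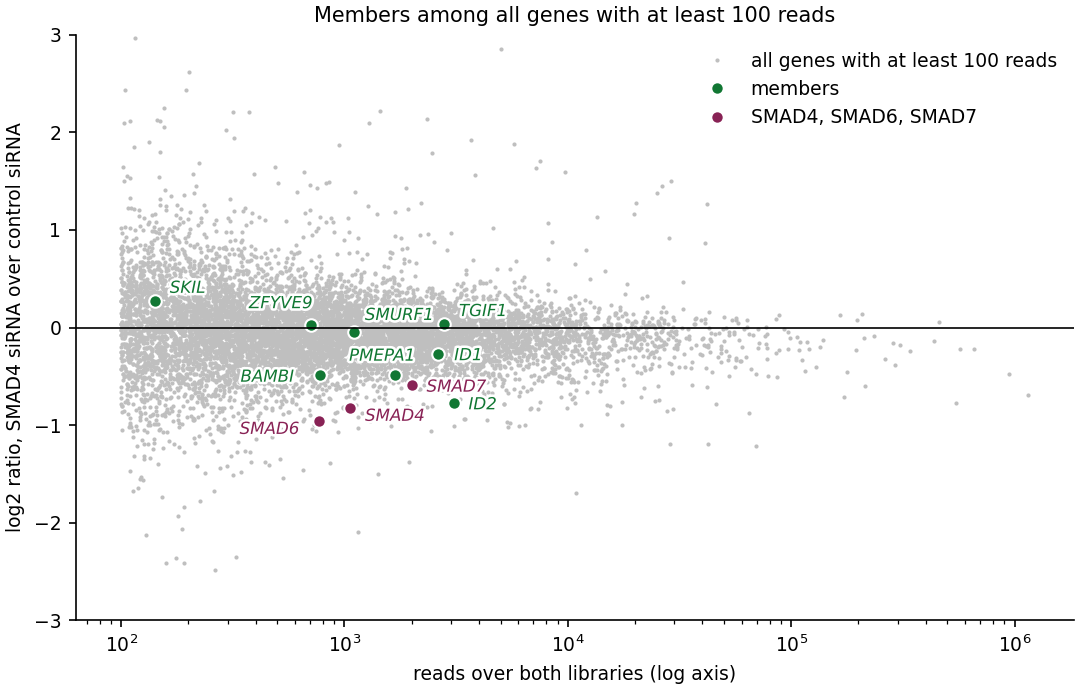
Log2 ratio of the values (SMAD4 siRNA over control siRNA) against the reads over both libraries on a log axis, for the 9664 genes with at least 100 reads (grey), the 8 members among them (green) and SMAD4, SMAD6 and SMAD7 (purple); 12 genes lie beyond the vertical axis. ID2 lies near SMAD4 at the lower edge of the cloud, while TGIF1, SMURF1 and ZFYVE9 lie inside it near 0.

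The scaling of the libraries bears on the members near 1. Rescaling the SMAD4 siRNA library to the sum of the control library adds 0.12 to each log2 ratio of plain values (less for low genes on the scale of value + 1) and puts the median of all genes at 0.07. ID2 was then at 0.635 (0.590 to 0.683), BAMBI at 0.772 (0.668 to 0.892), PMEPA1 at 0.773 (0.701 to 0.852) and ID1 at 0.900 (0.833 to 0.972), still with whole intervals below 1. TGIF1 came to 1.11 (1.03 to 1.20), wholly above 1, and SMURF1 to 1.05 (0.930 to 1.18). Of all genes, 13.4% then lay wholly below 1 and 21.2% wholly above, while the members stood at 4 below and 1 above. Of genes with at least 100 reads, 19.6% then lay wholly below 1 and 30.8% wholly above.

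The partners and relatives of these genes were taken from lists by role, and their counts are over genes with at least 100 reads, of which 32.4% lay wholly below 1 and 17.6% wholly above as deposited. For the E proteins that ID proteins bind, 0 of 3 had an interval excluding 1: TCF3 was at 254 in both libraries, TCF4 had a ratio of 1.08 (0.881 to 1.32) and TCF12 one of 0.903 (0.725 to 1.12). Of 18 other SMAD-induced targets listed, 10 had at least 100 reads, and of these 8 lay wholly below 1 by their interval and 0 above, with a median log2 ratio of -0.32. After the rescaling of the libraries these counts were 6 below and 2 above, beside 19.6% and 30.8% of all genes with as many reads. CDKN2B, an inhibitor of the G1 kinases, was lowest at 0.483 (0.366 to 0.635), and the matrix protein TGFBI followed at 0.555 (0.474 to 0.648). Highest were KLF10, a TGF-beta-induced transcription factor, at 1.30 (0.936 to 1.81) and JUNB at 1.08 (0.984 to 1.18), both with intervals that include 1. These were the 2 above 1 after rescaling, KLF10 at 1.41 (1.02 to 1.97) and JUNB at 1.17 (1.07 to 1.28).

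Extracellular antagonists of the pathway had 7 members with at least 100 reads, 5 of them wholly below 1 and 0 above. The median log2 ratio was -0.50, and the counts were the same after rescaling. DCN, also on the list of theca markers, was among those below 1, at 0.743 (0.707 to 0.781). CHRDL1 was at 0.601 (0.560 to 0.644) and CRIM1 at 0.601 (0.578 to 0.626), while FST, the activin-binding follistatin, was at 0.920 (0.816 to 1.04). The ubiquitin ligases and deubiquitinases of the pathway, relatives of SMURF1 in function, had 4 of 11 below 1 and 2 above, with a median log2 ratio of 0.02, and after rescaling 2 were below and 4 above. Those shares are close to the ones over all genes. WWP1, a ligase of the same family as SMURF1, was at 0.675 (0.555 to 0.819) and FBXO30 at 1.41 (1.10 to 1.82), whereas SMURF2 was listed at 0 in both libraries. Among other corepressors 3 of 11 were below 1 and 1 above, with a median log2 ratio of -0.07, and after rescaling 2 were below and 5 above. The scaffolds NCOR1 and SIN3A, which SKI-family proteins recruit, were at 0.844 (0.789 to 0.902) and 0.841 (0.770 to 0.918), and HDAC1 was at 2.62 (2.18 to 3.16). These lists were written with earlier results of the same data known, so their directions are a description and no independent evidence.

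**Figure D4:**
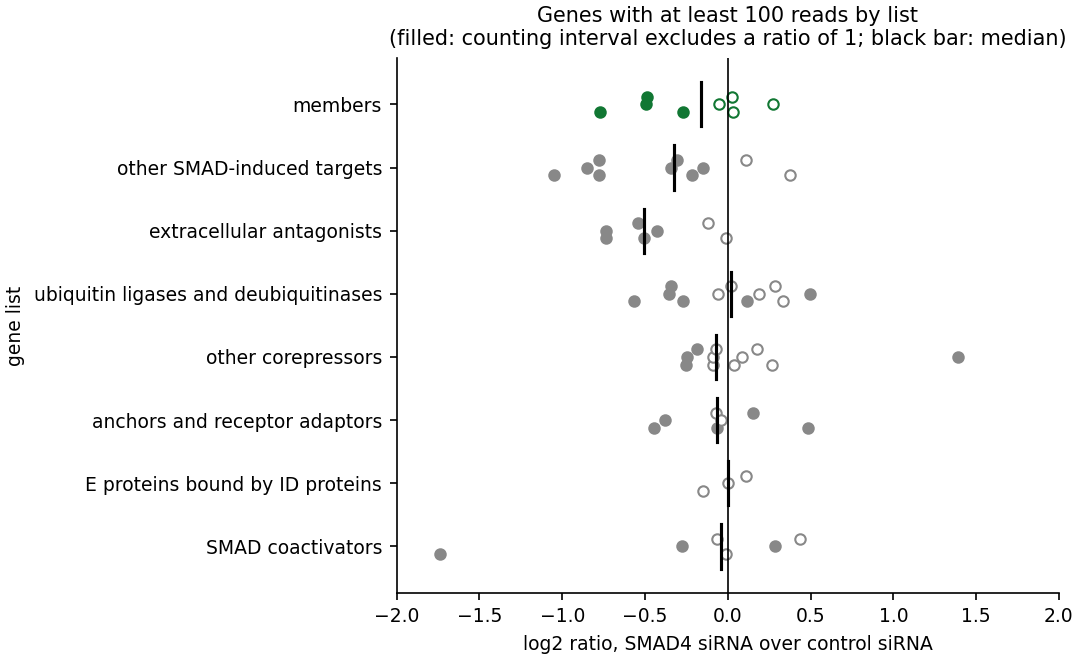
Log2 ratio (SMAD4 siRNA over control siRNA) of each gene with at least 100 reads, by list, with filled points where the counting interval excludes a ratio of 1 and a black bar at each list's median. The 8 members with enough reads (green) split into 4 filled points below 0 and 4 open points near or above it, and the E proteins lie around 0.

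The cell label was checked against markers. Of 16 granulosa markers 12 were measured, among them the transcription factors GATA4 (748 and 774), WT1 (521 and 509), NR5A1 (265 and 225) and FOXL2 (132 and 146) in the control and SMAD4 siRNA libraries. FSHR was at 4.93 and 3.48 on at least 9 and 7 reads, and CYP19A1, AMH, INHBB and CYP11A1 were listed at 0 in both. Summed over each list, granulosa markers went from 14881 to 26101, which is mostly HSD3B1, theca markers from 39370 to 30217, mostly COL3A1, leukocyte markers from 657 to 625, endothelial markers from 446 to 343, surface epithelium markers from 419 to 465 and oocyte markers from 76.1 to 61.7. Of the theca markers CYP17A1, INSL3 and LHCGR were listed at 0 in both, as were CDH1, EPCAM and MSLN of the epithelium. So were TEK and TIE1 of the endothelium, CD3E, and ZP2, ZP3, FIGLA, DAZL and DDX4 of the oocyte. Some others on these lists were above 0 in both libraries. NR2F2 (72.9 and 67.1), TCF21 (50.9 and 47.8) and PTCH1 (33.3 and 30.3) of the theca were among them. KRT8 of the epithelium was at 386 and 428 and GDF9 of the oocyte at 73.2 and 56.6. Of the leukocyte markers, CD14 was at 579 and 566, TYROBP at 57.4 and 50.5 and PTPRC at 0.334 and 0.606. As above, a listed 0 says nothing of expression. ID1 and ID2 are also strongly expressed in endothelial cells. PECAM1 was at 275 and 240 and ERG at 167 and 97.2, while KDR and VWF were at 2.21 or less in either library. The part of other cell types in the lower ID1 and ID2 was not tested.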

How the data were processed

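Total RNA from 1 pool per group was sequenced on an Ion Torrent Proton, per the labels and the design text. Going by the table names, the deposited unit is RPKM with upper-quartile scaling by the authors. The aligner, read counter, annotation and genome build were not given in the sources used here. Values were used as deposited. Whole reads were recovered with divisors of 890 (control) and 980 (SMAD4 siRNA): their ratio of 0.908 is that of the commonest ratio between the libraries, and all 18428 genes above 0 gave whole reads at some length no longer than 40000 bases (tolerance 2e-09 relative plus 1e-06 absolute). The smallest solution was kept. The steps were tested on simulated data.

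Differences were measured as log2(value + 1) with SMAD4 siRNA minus the same with control siRNA, for genes whose mean value reached 1, with a 2-fold threshold. It understates changes of low genes, so plain ratios are printed for single genes. Intervals and ratios of ratios used scipy 1.17.1 in Python 3.11.15. Named are all members, SMAD4, SMAD6, SMAD7, the E proteins, markers, and genes among the 3 highest and 3 lowest of each list at 100 or more reads. FLNA, POR, CLIC1, SMURF2, the comparison of pairs and genes named only as listed at 0 were chosen after values were seen. Names came from the tables and, for IDs without a symbol, from RefSeq (Sscrofa11.1). Promoter and protein sequences were not used here. The members and lists were chosen with earlier results of these data known. Other settings tried were centring on the median, pseudocounts of 0.1 and 5, rescaling to equal sums, other minimums and a 1.5-fold threshold. Centring on the median of genes with 100 or more reads was added after seeing the data.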

Additional observations from a re-analysis of the deposited data

How the results depend on the processing

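Members with an interval wholly below 1 numbered 4 under each scaling and minimum tried. The share over all genes ran from 10.3% with no minimum to 32.4% with at least 100 reads. Scaling to the total recovered reads (at least 17680952 and 17394711) was not tried. Of the 4, ID1 came nearest to 1, with an interval up to 0.972 after rescaling to the control sum. A somewhat larger shift would bring 1 into it, so the place of ID1 among the 4 depends on the scaling. The count with an interval wholly above 1 was 0, and 1 (TGIF1) with the SMAD4 siRNA library rescaled to the control sum (21.2% of all genes). The count lower by at least 2-fold, 1 (ID4), was 0 with a pseudocount of 5 (2.63% of all genes), 0 where the mean value had to reach 5 (3.95%), 0 where reads had to reach 100 (1.12%) and 2 at a 1.5-fold threshold (13.7%). Stricter minimums remove ID4, which rests on 5 recovered reads, a lower bound. Rescaling moved ID1 to -0.15, ID2 to -0.66 and TGIF1 to 0.15 on the log2 scale, outside their counting intervals, by the shift of 0.12 that it adds to ratios of plain values. ID4 moved less, to -1.30, because of the pseudocount. SMURF1 ran from -0.05 to 0.07, and the other 8 members kept their sign under the 5 alternatives that recompute single genes. SMAD4 lay between -0.83 and -0.70. Depth limits ID4 most, then SKIL with at least 142 reads. No paired analysis was possible because each group has 1 library, and no replicate could be left out.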

Other observations

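Adaptors that, like ZFYVE9, link SMADs to receptors or endosomes stood near the shares over all genes. Among the 7 with at least 100 reads, 3 lay wholly below 1 by their interval and 2 above, beside 32.4% and 17.6% of all genes with as many reads, and the median log2 ratio was -0.06. With the libraries rescaled to equal sums, 2 were below and 3 above, beside 19.6% and 30.8%. DAB2, an endocytic adaptor that binds receptors and SMADs, had a value of 1974 with control siRNA and 1515 with SMAD4 siRNA, a ratio of 0.767 (0.742 to 0.794). CAV1, the caveolar protein that takes receptors toward degradation, was at 51.2 and 71.5, a ratio of 1.40 (1.10 to 1.78). STRAP, which binds SMAD7 at the receptor, was at 0.972 (0.880 to 1.07).

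SMAD coactivators with at least 100 reads numbered 6, of which 2 lay below 1 and 1 above by their intervals, near the shares of 32.4% and 17.6% over all such genes, and their median log2 ratio was -0.04. After the same rescaling 2 were below and 2 above, beside 19.6% and 30.8%. RUNX2, a DNA-binding partner of SMADs, was at 39.8 and 11.9, from at least 115 and 38 reads, a ratio of 0.300 (0.202 to 0.436). RUNX1, of the same family, was at 147 and 180, a ratio of 1.22 (1.001 to 1.48). The acetyltransferase EP300, with which TGIF1 and SKIL compete on SMAD complexes, was at 0.825 (0.774 to 0.880), and its relative CREBBP was at 1.35 (0.951 to 1.94).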
